A study of Mus musculus with 2 samples.

Results

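The genes measured here were the carboxylesterases of mouse liver, enzymes of the endoplasmic reticulum and plasma that cleave ester bonds. They were chosen by symbol: of the 18 gene symbols in the deposited tables that begin with Ces and a digit, the first 10 in alphabetical order were taken, out of 13326 symbols in all. These are the 8 genes of the Ces1 subfamily (Ces1a to Ces1h) and 2 genes of the Ces2 subfamily (Ces2a and Ces2b). All 10 were listed once in each table, and all 10 had at least 1 FPKM, a unit that scales fragments to transcript length and to the library's mapped fragments, in at least 1 library. The remaining 8 symbols (Ces2c, Ces2d-ps, Ces2e, Ces2f, Ces2g, Ces3a, Ces3b and Ces4a) served as the comparison within the family.

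RNA came from liver of male C57BL/6J mice aged 12 weeks, killed after an overnight fast. One group was wild type and the other was Adipoq-/-, which lacks the gene for adiponectin, a hormone secreted by fat cells. The labels give the loss as a genotype and name no transgene or Cre. RNA of 9 to 10 mice was pooled within each genotype into 1 library, so there were 2 libraries, no replicates, and no test across samples. Adipoq itself was not used here, and no check of the genotype labels by the targeted gene was made. Depth is unknown because the tables hold FPKM and no counts, and every difference below is a difference between 2 libraries with no replicate check.

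Carboxylesterases share a fold with a serine in the active site and act on drugs, retinyl esters, cholesteryl esters and triacylglycerols. In hepatocytes several Ces1 enzymes sit in the lumen of the endoplasmic reticulum, where they hydrolyse stored lipid and supply fatty acids for very low density lipoprotein (VLDL), while others are released into blood. Nuclear receptors that sense xenobiotics and lipids are known regulators of many of these genes. In mice the family grew by tandem duplication, so its members lie side by side and resemble each other in sequence.

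Promoter sequence was compared for the genes that could be matched. The RefSeq promoter table (build GRCm38.p6) matched 7 of the 10 genes: Ces1a, Ces1b, Ces1c, Ces1e, Ces1g, Ces1h and Ces2a. Ces1d, Ces1f and Ces2b were not matched. An element read as TTATGTAA, the core of the D-box bound by PAR-family basic leucine zipper factors and related to sites of C/EBP factors, lay within the 250 bases before a start site in 5 of these 7 genes (Ces1a, Ces1b, Ces1c, Ces1e and Ces1g). It was searched for on both strands after it had been noticed in the sequences. The same letters were present in 0.811% of all 32536 distinct windows of that length in the table, and in 0 of the 6 windows of other Ces symbols, for the 6 genes that matched. Because the Ces1 genes are copies of each other, the 5 matches are not independent, and a match is not a binding site. The windows of Ces1c (the most abundant member), Ces1e (the lowest ratio between libraries) and Ces1a (a member of low level) are shown 5′ to 3′ on the gene strand, with TTATGTAA in capitals. They lie on the minus strand of GRCm38.p6 at chr8:93131284-93131533 for Ces1c, chr8:93229620-93229869 for Ces1e and chr8:93048193-93048442 for Ces1a, each ending at the base before the start site.
Ces1c: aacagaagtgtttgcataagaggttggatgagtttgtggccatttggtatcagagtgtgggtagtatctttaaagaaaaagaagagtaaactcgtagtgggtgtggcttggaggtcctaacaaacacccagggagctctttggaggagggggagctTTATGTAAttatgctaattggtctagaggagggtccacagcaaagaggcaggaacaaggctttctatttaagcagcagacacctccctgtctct
Ces1e: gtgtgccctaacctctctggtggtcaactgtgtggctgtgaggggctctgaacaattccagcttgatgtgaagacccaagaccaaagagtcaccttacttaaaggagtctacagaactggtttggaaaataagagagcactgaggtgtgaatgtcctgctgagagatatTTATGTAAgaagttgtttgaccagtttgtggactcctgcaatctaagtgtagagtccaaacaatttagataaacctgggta
Ces1a: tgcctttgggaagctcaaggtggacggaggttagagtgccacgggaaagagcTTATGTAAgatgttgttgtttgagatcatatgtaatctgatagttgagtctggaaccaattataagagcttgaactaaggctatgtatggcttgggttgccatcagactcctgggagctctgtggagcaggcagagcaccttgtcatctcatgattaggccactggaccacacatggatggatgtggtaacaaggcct

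The element began 94 bases before the start in Ces1c, 81 in Ces1e, 198 in Ces1a, 232 in Ces1g and 84 in Ces1b, so its distance was close in Ces1b, Ces1c and Ces1e and differed in the others. Ces1b has a second start site in the table, whose window holds no full match. The windows of Ces1b and Ces1c were 94.6% identical over 223 aligned bases, and the next closest pair, Ces1a and Ces1g, had 70.7%. Apart from Ces1b with Ces1c, the 18 window pairs of different Ces1 genes (both Ces1b windows counted) had 56.2% to 70.7%. This range overlapped that of the 7 pairs of a Ces1 window with Ces2a, 55.1% to 62.9%, although the medians were 63.7% and 56.5%. These ranges therefore did not separate Ces1 from Ces2a, the only Ces2 window that was aligned. Other motifs were searched for in the same way. None of these motifs contains another. CCAAT was found in 5 of the 7 genes and in 33.8% of all windows, TATAAA in 2 (12.3% of all), and AGGTCA, to which nuclear receptors bind, in 1, that of Ces2a (4567 of all 32536 windows). The E-box CACGTG (6.04% of all) and the antioxidant response core TGACNNNGC (10.2% of all) were found in 0 of the 7.

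The coding sequences did separate the subfamilies. Among the 28 pairs within Ces1, 73.8% to 91.1% of aligned coding bases were identical, with a median of 78.0%. The 16 pairs of a Ces1 with a Ces2 member had 62.7% to 67.3%. Ces1b and Ces1c were the closest pair of members at 91.1%, and the nearest relative of Ces2b was Ces2c at 92.1%. Near-identical stretches limit how reads can be assigned. Of all 36-base stretches in the transcript of Ces1c, 22.4% also occurred in another Ces gene, and of those in Ces1b 19.1% did. The share was 8.81% for Ces2b, 6.49% for Ces2a, 6.13% for Ces1e, 4.47% for Ces1d, 4.09% for Ces1h, 3.78% for Ces1g, 2.91% for Ces1f and 1.70% for Ces1a. The values of Ces1b and Ces1c are therefore the least certain to be separate, and those of Ces1d to Ces1g rest mostly on sequence of their own. The read length is not given in the sources used here, and 36 bases was a choice.

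**Figure D1:**
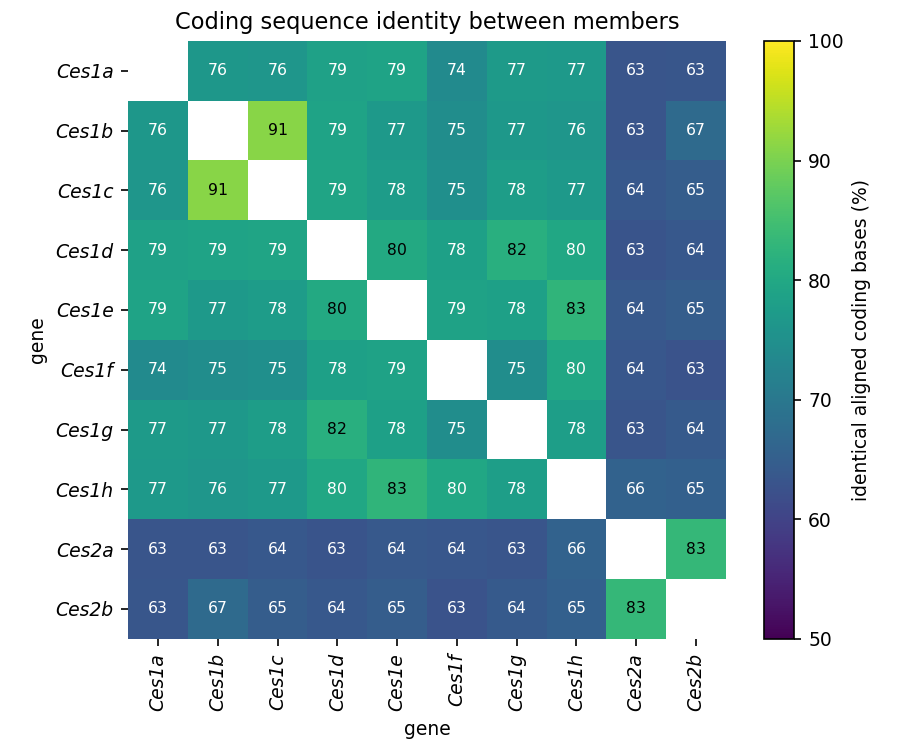
Percent of aligned coding bases that are identical for each pair of the 10 genes, from the longest coding transcript of each gene in GENCODE M21 (rows and columns are genes, colour and printed number give the percent). Ces1b with Ces1c stands out at 91.1%, and the Ces1 and Ces2 genes form separate blocks.

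Levels per transcript length differed widely among the 10 genes. Ces1c, which encodes the carboxylesterase of mouse plasma, had 1231 FPKM in wild type and 1031 without adiponectin. It ranked 87 and 108 among all 13326 genes and made up 46.7% and 51.5% of the summed FPKM of the 10 genes. Ces1d, the triacylglycerol hydrolase that mobilises stored lipid for VLDL, followed at 522 and 329 FPKM. Ces1f, a second triacylglycerol hydrolase of hepatocytes, was at 315 and 223. Ces2a, which can hydrolyse acylglycerols, was at 236 and 184. These 4 genes held the same order in both libraries.

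A middle group comprised Ces1b at 142 and 121 FPKM, Ces1e at 97.8 and 49.8, and Ces1g at 78.0 and 51.9. Ces1e encodes egasyn, which holds beta-glucuronidase in the endoplasmic reticulum, and Ces1g encodes a lipid hydrolase known to limit lipid synthesis and VLDL secretion in liver. Their order was the only one among the 10 that switched, with Ces1e above Ces1g in wild type and below it without adiponectin. With 1 library per genotype it cannot be said whether neighbours in this order differ beyond animal-to-animal spread. The last 3 were far lower: Ces2b at 5.22 and 4.83 FPKM, Ces1a at 3.94 and 2.93, and Ces1h at 3.65 and 2.88. Ces1c exceeded Ces1h 337-fold in wild type and 359-fold without adiponectin.

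**Figure D2:**
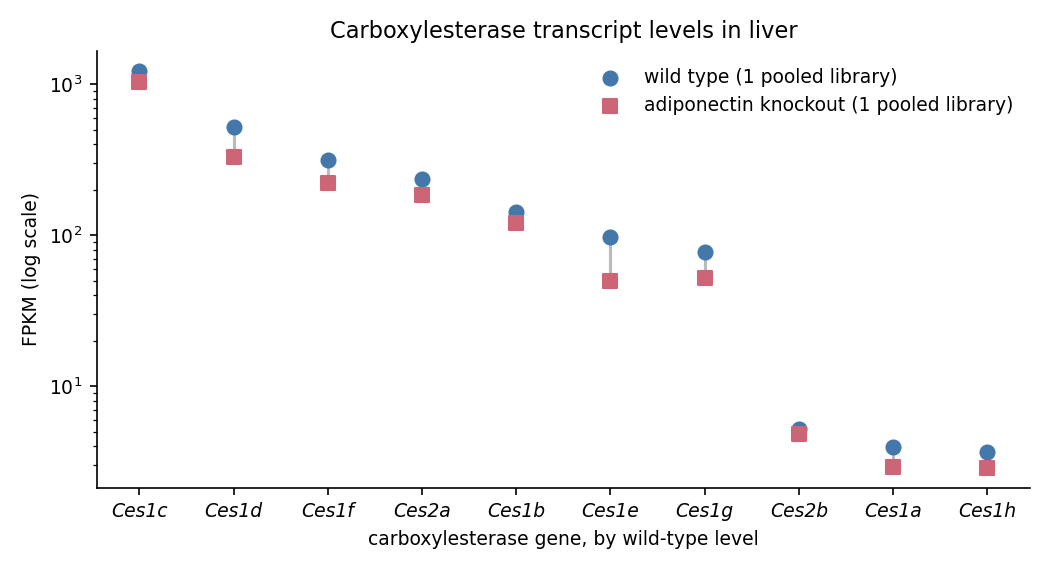
FPKM of the 10 carboxylesterase genes on a log axis, ordered by wild-type level, with circles for the wild-type library and squares for the knockout library (1 pooled library each, no error can be given). Every square lies below its circle, with the widest gap at Ces1e (97.8 and 49.8 FPKM).

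All 10 genes had a lower FPKM in the knockout library as deposited. In bulk tissue, fewer cells of a type and less RNA per cell cannot be told apart. Of all genes this held for many, since 66.9% of the 11985 genes with at least 1 FPKM in a library were lower, and the median log2 ratio, log2((knockout + 1) / (wild type + 1)), was -0.15 over all of them. Ratios are therefore given relative to that median (the added 1 FPKM pulls the ratio of weakly expressed genes towards 0). On it 9 of the 10 lay below the all-gene median, against 50% of all genes by construction, and the exception Ces2b (0.06) also fell below 0 under 4 of 10 other scalings or settings. The median of the 10 was -0.19, with a range from -0.81 to 0.06, beside 0 for all genes tested. One gene, Ces1e, was at least 1.5-fold lower relative to all genes, where 2.61% of all genes were, and 0 of the 10 were at least 1.5-fold higher (6.73% of all genes). The count of lower members rose with scalings that move all genes down: it was 2 with FPKM as deposited (6.17% of all genes) or equal upper quartiles (4.38%), 3 with equal sums without the major urinary protein (Mup) genes (7.63%) and 4 with equal sums (12.5%). Summed over the 10, FPKM went from 2635 to 2001, or from 0.330% to 0.224% of the library total.

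The lowest ratio belonged to egasyn. Ces1e went from 97.8 FPKM in wild type to 49.8 without adiponectin, a ratio of 0.510 as deposited and a relative log2 ratio of -0.81, at percentile 0.868 of all genes tested. Ces1d was next, with 522 and 329 FPKM, a ratio of 0.630, a relative log2 ratio of -0.51 and percentile 3.89. The lipid hydrolase genes Ces1g (0.665 as deposited, relative -0.43, percentile 6.36) and Ces1f (0.707, -0.35, percentile 10.2) came after these. Ces1d, Ces1e, Ces1f and Ces1g together went from 1013 to 654 FPKM, a ratio of 0.645.

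The other members were nearer to the median of all genes. Ces2a was at -0.21 (percentile 22.0) and Ces1a at -0.18 (percentile 25.4). Ces1h stood at -0.11 (percentile 34.4), the abundant Ces1c at -0.10 (percentile 35.5) and its close copy Ces1b at -0.07 (percentile 39.5). Ces1b and Ces1c, which share the most sequence, had nearly the same ratio, and the level of Ces1b was 0.115 of that of Ces1c in wild type and 0.118 without adiponectin. The balance within the family moved accordingly: Ces1c exceeded Ces1d 2.36-fold in wild type and 3.13-fold without adiponectin, and it exceeded Ces1e 12.6-fold and 20.7-fold. In FPKM, Ces1c accounted for 31.5% of the summed difference of the 10 genes and Ces1d for 30.5%, followed by Ces1f with 14.6%, Ces2a with 8.20% and Ces1e with 7.57%.

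Abundance bears on these positions. Genes whose mean reached 50 FPKM had a median relative log2 ratio of 0.22, and 29.5% of these 1782 genes lay below the all-gene median. All 7 members of that abundance did: Ces1b, Ces1c, Ces1d, Ces1e, Ces1f, Ces1g and Ces2a. Among the abundant genes, 11 lay at or below Ces1e, 38 at or below Ces1d, 60 at or below Ces1g and 98 at or below Ces1f. Ces2a was at percentile 11.8 of them, Ces1c at 18.9 and Ces1b at 21.1. After subtraction of the median ratio of genes of like mean FPKM, the median of the 10 was -0.41, and 4 genes were at least 1.5-fold lower, where 2.91% of all genes were (Ces1e at -0.99, Ces1d at -0.77, Ces1g at -0.61 and Ces1f at -0.61).

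**Figure D3:**
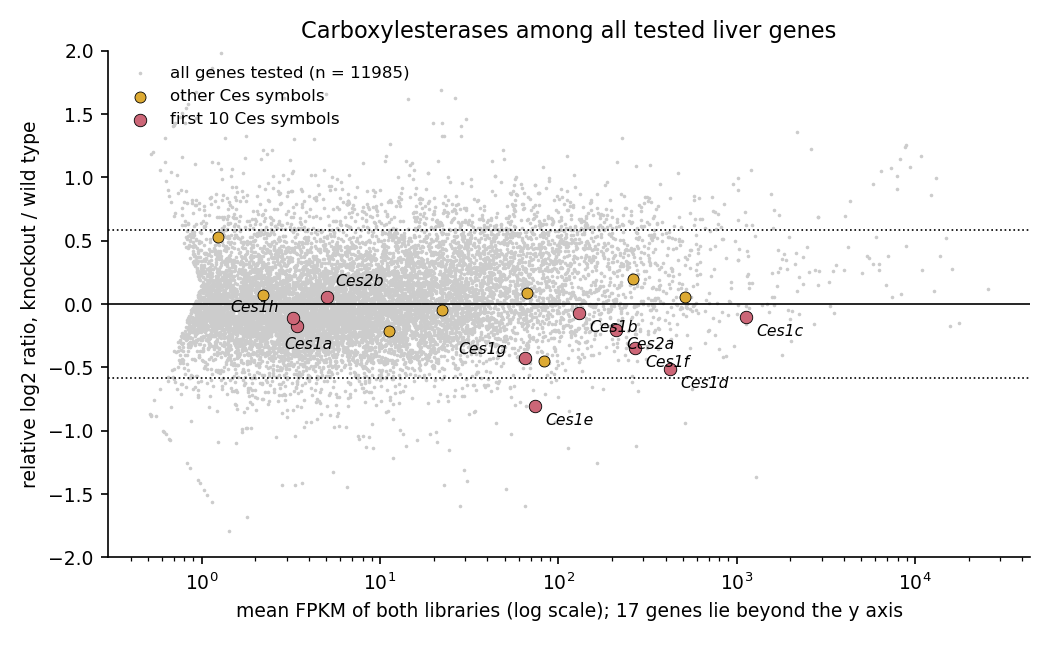
Relative log2 ratio of knockout to wild type against mean FPKM (log axis) for the 11985 genes tested (grey; 17 of them lie beyond the y axis), the 10 carboxylesterases (red, named) and the 8 other Ces symbols (yellow), with dotted lines at 1.5-fold. The abundant members Ces1d, Ces1e, Ces1f and Ces1g lie in the lower part of the grey cloud, while Ces1b, Ces1c, Ces1a, Ces1h and Ces2b lie within it.

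The 4 genes with the lowest ratios are neighbours. In the gene order of GRCm38, used here for order only, the Ces1 genes form 1 row on chromosome 8 from Ces1a to Ces1h with no other tested gene between them, and Ces1d, Ces1e, Ces1f and Ces1g follow each other in its middle. These 4 had relative log2 ratios of -0.51, -0.81, -0.35 and -0.43. The genes on one side, Ces1a, Ces1b and Ces1c, had -0.18, -0.07 and -0.10, and Ces1h on the other had -0.11. Ces1a and Ces1h are weakly expressed, and the added 1 FPKM pulls their ratios towards 0. With 0.1 FPKM added they were at -0.23 and -0.15, beside -0.32 for Ces1f. Under that setting Ces1d, Ces1e, Ces1f and Ces1g still had the 4 lowest ratios. This grouping was seen in the values and carries no test. By coding sequence Ces1d and Ces1g were each other's nearest relative (81.5% identical bases), whereas Ces1e (82.8%) and Ces1f (79.8%) were each nearest to Ces1h. Pairs among Ces1d to Ces1g had 74.6% to 81.5%, within the range of all Ces1 pairs.

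**Figure D4:**
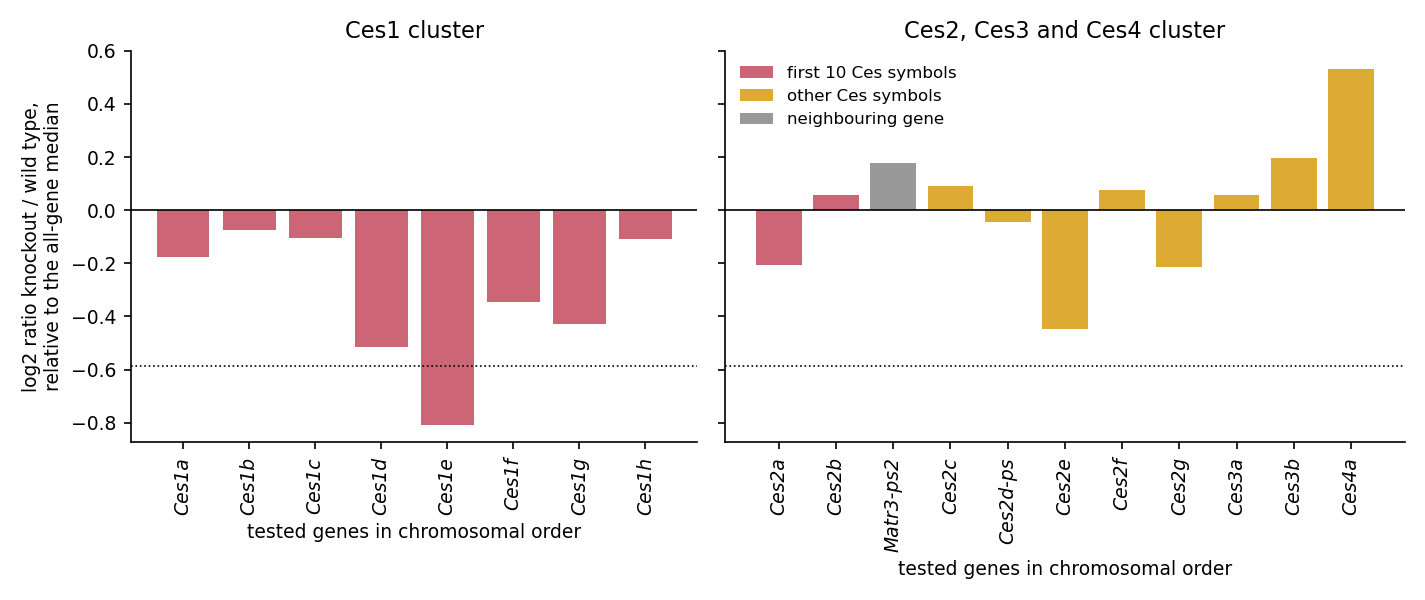
Relative log2 ratio of knockout to wild type for tested genes in the order in which they lie on chromosome 8, with the Ces1 row on the left and the Ces2, Ces3 and Ces4 row on the right and a dotted line at 1.5-fold lower. The 4 adjacent bars Ces1d to Ces1g (-0.51, -0.81, -0.35 and -0.43) reach lower than the bars beside them.

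The second row holds Ces2a, Ces2b and the other 8 Ces symbols. The 8 other Ces symbols had a median of 0.07, with 3 below and 5 above the all-gene median. Of the 8, 0 were past 1.5-fold in either direction (2.61% of all genes lower, 6.73% higher). Their summed FPKM went from 998 to 929, a ratio of 0.932 against 0.759 for the 10 genes. Ces2e was the only one of the 8 in the range of Ces1d to Ces1g, at 101 and 66.1 FPKM (-0.45), although it lies in the other row. Ces2c, a hydrolase of liver acylglycerols, was at 67.9 and 65.0 (0.09), and the pseudogene Ces2d-ps, with which it shares 46.9% of its 36-base stretches, at 23.8 and 20.7 (-0.04). Ces3a (531 and 497, 0.06) and Ces3b (259 and 267, 0.20) had higher ratios than every abundant member. Ces3a equalled Ces1d in wild type (1.02-fold) and exceeded it 1.51-fold in the knockout library. Ces3a and Ces3b share 95.3% of aligned coding bases, so their split is uncertain. Ces2g was at 12.8 and 9.76 (-0.21), Ces2f at 2.29 and 2.12 (0.07), and Ces4a at 0.942 and 1.53 (0.53), which reached 1 FPKM only in the knockout library.

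Genes that act beside the carboxylesterases were counted from lists of like function, chosen with earlier results of these data known. Among 37 tested ester and lipid hydrolases outside the family, 29 lay below the all-gene median, where 50% of all genes lie, with a list median of -0.16. Of the 37, 1 was at least 1.5-fold lower, beside 2.61% of all genes. That gene was Lipa, the lysosomal acid lipase (68.8 and 39.0 FPKM, -0.65). Monoacylglycerol lipase, Mgll, was at 27.6 and 17.1 (-0.51) and hepatic lipase, Lipc, at 51.4 and 39.2 (-0.23). The liver esterase Aadac was at 705 and 648 (0.03), and the lysophospholipase Pnpla7 was higher relative to all genes at 294 and 377 (0.51). Of the VLDL list, 14 of 20 lay below (50% of all genes), with a median of -0.15. Of the 20, 2 were at least 1.5-fold lower (2.61% of all genes): Plin2 (-0.67) and the weakly expressed Cidec (-1.43). Mttp, which loads lipid onto apolipoprotein B, was at 43.2 and 30.0 (-0.36) and Apob at 302 and 236 (-0.20).

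Of the receptors and factors known to act on Ces genes, 19 of 21 tested lay below the all-gene median (median -0.15), beside 50% of all genes. Of these, 0 were past 1.5-fold (2.61% of all genes lower, 6.73% higher). Nr1i3, the xenobiotic receptor CAR, was at 43.2 and 26.1 FPKM (-0.55), whereas the related receptor PXR, Nr1i2, was at 14.2 and 11.0 (-0.18). The factor Sp1 had the next lowest ratio of the list (6.10 and 3.52, -0.50). Hnf4a was at 91.0 and 71.9 (-0.18), Nfe2l2 at 16.1 and 12.4 (-0.21) and Ppara at 36.5 and 31.7 (-0.05). Among enzymes and transporters known as targets of CAR and PXR, 31 of 33 lay below (50% of all genes), with a median of -0.29. Of the 33, 5 were at least 1.5-fold lower (2.61% of all genes). Gsta2 was at 33.4 and 15.4 (-0.92) and the anion transporter Slco1a4 at 15.1 and 7.74 (-0.73). The phenobarbital-inducible Cyp2b10 was at 2.08 and 0.693 (-0.71). The ratios of Ces1d, Ces1e, Ces1f and Ces1g lay below the median of this list, and those of the other 6 carboxylesterases above it.

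**Figure D5:**
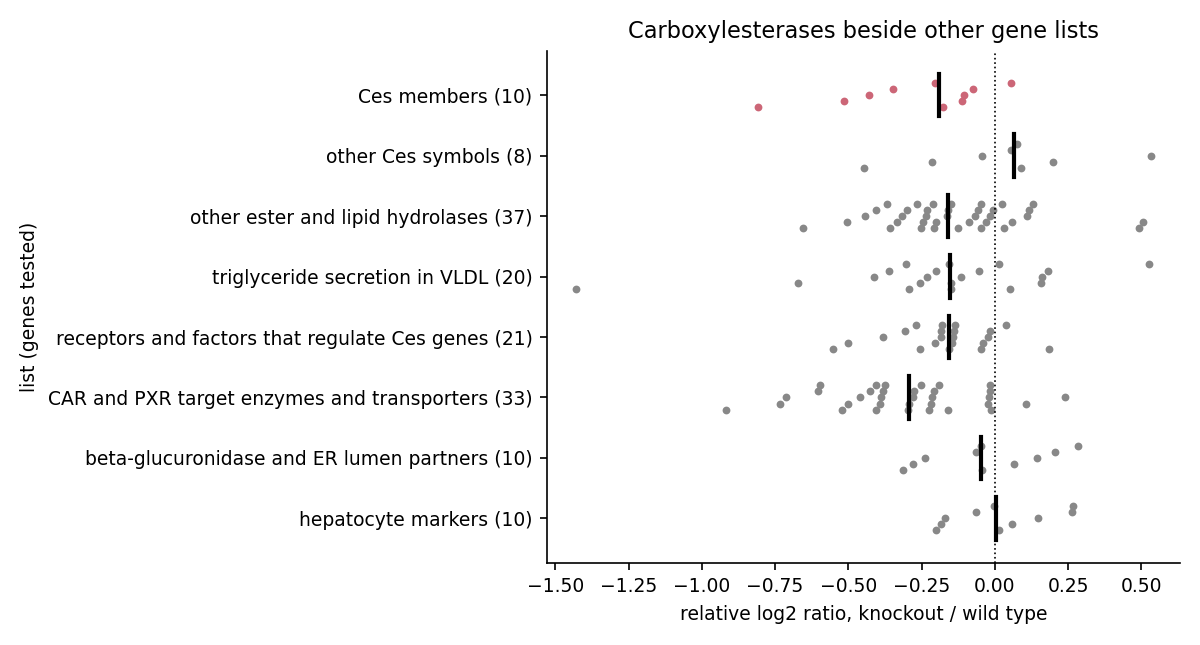
Relative log2 ratio of every tested gene (points) and the median (black bar) for the 10 carboxylesterases, the other 8 Ces symbols and 6 lists of related genes, with the number tested in brackets. The median of the 10 genes (-0.19) lies between that of the CAR and PXR targets (-0.29) and that of the hepatocyte markers (0.00).

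The tissue label was checked against markers. Hepatocyte markers were abundant, with 10 of 10 tested, 5 below and 5 above the all-gene median and a list median of 0.00, and their summed FPKM went from 36577 to 33417. The fall in Alb, from 17522 to 14031, was larger than that of the sum. As deposited, 8 of the 10 were lower (66.9% of all genes), and Apoa1 and Serpina1a were higher. Among other cell types, 9 of 11 tested Kupffer cell markers lay above the all-gene median (summed FPKM 265 and 314), beside 50% of all genes. Lyz2, at 72.5 and 116, carried most of the difference between these sums. Of the 11, 2 were at least 1.5-fold higher (6.73% of all genes): Lyz2 (0.82) and the weakly expressed Marco (1.26 and 3.72, 1.21). Emr1 was next at 3.31 and 4.49 (0.50). As deposited, 4 of the 11 were lower in the knockout library, beside 66.9% of all genes, among them Clec4f at 52.0 and 48.9. Endothelium markers summed to 60.2 and 62.6, mostly Clec4g at 38.2 and 42.9, and 6 of the 8 were lower as deposited (66.9% of all genes). Stellate cell markers (6 of 7 present) summed to 69.7 and 69.8, mostly Dcn at 55.3 and 56.6. Lymphocyte markers (3 of 8 present) summed to 4.52 and 3.53. Cholangiocyte markers (3 of 6 present) summed to 16.2 and 23.6, mostly Spp1 at 13.4 and 21.0, while Krt19 was at 1.02 and 1.09 and Sox9 at 1.72 and 1.52. Neutrophil markers (2 of 6 present) summed to 22.5 and 19.4, with S100a8 at 9.87 and 6.69 and S100a9 at 12.6 and 12.7. Erythroid markers, mostly globin transcripts, summed to 7428 and 8617. Of the adipocyte markers, 3 of 6 were in the tables, and they did not move together. Cfd was at 13.3 and 2.01 and Cidec at 4.73 and 0.913, whereas Fabp4 was at 9.61 and 10.95 (relative log2 ratio 0.32). The part of these markers in the carboxylesterase ratios was not tested.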

How the data were processed

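Liver RNA of 2 genotypes was sequenced as 1 pooled library each. The authors deposited FPKM, 1 value per gene symbol and library, made with TopHat and Cuffdiff on mouse builds mm9 and NCBIM37, per the submitters' processing notes. Versions, annotation and row filters are unknown (not given in the sources used here). Of 13352 rows, 13326 were kept, 1 per symbol (the higher mean, for 26 symbols listed 2 times). FPKM keeps no depth, so no interval could be given.

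Each library was assigned by its genotype label. The log2 ratio used a pseudocount of 1 FPKM on 11985 genes with at least 1 FPKM in a library, minus their median. With 1 library per genotype there was no test, and calls were by size (1.5-fold). The ratio code was tested on simulated data. Coding sequences and transcript lengths came from GENCODE M21 and promoters from RefSeq (GRCm38.p6). Since this is not the build of the deposited files, these served only for sequence, gene order and the length correction among the alternative settings. Alignments used Biopython 1.88 and figures matplotlib 3.10.9. A planned protein comparison was replaced by coding sequence, since no protein table was used here.

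Named genes were all Ces symbols, a fixed set of list genes and the list members farthest from 0. Of the latter, some are not described, and some items are not reported here, which took 1 gene out of the list of receptors and factors after its values were seen. The members and lists were chosen with earlier results of these data known. In all, 10 alternative settings were planned (pseudocount, minimum, scaling, length and abundance).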

Additional observations from a re-analysis of the deposited data

How the results depend on the processing

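The median relative log2 ratio of the 10 carboxylesterases stayed below 0 under all 10 alternative settings. It moved by more than 0.1 from -0.19 under 5 of them: -0.31 with a minimum of 5 FPKM (8 genes measured), -0.34 with FPKM as deposited, -0.48 with equal summed FPKM, -0.38 with equal sums without the 34 Mup genes, and -0.41 after abundance correction. The count of genes at least 1.5-fold lower, 1 as reported, was 2 with FPKM as deposited (6.17% of all genes) and with equal upper quartiles (4.38%), 3 with equal sums without Mup genes (7.63%), 4 with equal sums (12.5%) and 4 after abundance correction (2.91%). No setting gave a gene at least 1.5-fold higher. Ces1e ranged from -1.12 to -0.79 and Ces1d from -0.82 to -0.49. Ces2b changed sign, from 0.13 to -0.23, and the other 9 genes stayed below 0 wherever they were measured. Transcript lengths were known for 88.5% of genes and all 10 members. Leaving out a library was not possible with 1 per genotype, and the unknown depth limits the low genes Ces1a, Ces1h and Ces2b most. No paired analysis was possible because each genotype has 1 library and no result comes from a test.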

Other observations

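Beta-glucuronidase, the lysosomal enzyme that egasyn holds in the endoplasmic reticulum, did not share the low ratio of Ces1e. Gusb had 6.45 FPKM in wild type and 7.16 without adiponectin (relative log2 ratio 0.28). Its ratio lay above that of each of the 10 carboxylesterases. In the list of beta-glucuronidase with chaperones and retrieval receptors of the endoplasmic reticulum, 6 of 10 tested genes lay below the all-gene median (median -0.05). Below it lay 50% of all genes. Of the 10, 0 were past 1.5-fold (2.61% of all genes lower, 6.73% higher). Within it the chaperones Hsp90b1 (234 and 169 FPKM, -0.31) and Canx (101 and 74.6, -0.28) had the lowest ratios.

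Lipid droplet genes of the VLDL list differed among themselves. The droplet coat gene Plin2 was at 722 and 408 FPKM (-0.67), between Ces1e and Ces1d. Cidec, at 4.73 and 0.913 (-1.43), lay below all 10 carboxylesterases. Its relative Cideb, named after its values were seen, was at 240.4 and 208.4 (-0.05), above all of the 10 except Ces2b. At the other end Apoc3, an apolipoprotein that slows triglyceride clearance, was at 5288 and 6862 FPKM (0.53).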
